A study of Mus musculus with 2 samples.

Results

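The small leucine-rich proteoglycans described here are 7 of the 29417 genes in the transcriptome table: decorin (Dcn), lumican (Lum), biglycan (Bgn), fibromodulin (Fmod), osteoglycin (Ogn), podocan (Podn) and Prelp, named for its proline- and arginine-rich end. They were taken by symbol as members of 1 gene family. The cells were the stromal vascular fraction, that is, the cells other than adipocytes, of epididymal white fat from wild-type male C57BL/6J mice. The mice had eaten a high-fat diet for 8 or 16 weeks, or a standard diet for 16 weeks. Each Liberase-digested suspension carried hashtag antibodies at 2.5 µg/ml, which tag the cells of 1 suspension with a DNA barcode, and the suspensions were pooled before 20000 cells went through a BD Rhapsody microwell cartridge and TAS-Seq, a whole-transcriptome single-cell method. The pool gave 1 transcriptome library and 1 hashtag library. The labels do not say which hashtag marks which diet, so the 9 hashtag populations are described as unassigned samples and no diets are compared.

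Small leucine-rich proteoglycans are secreted proteins built around a short arch of leucine-rich repeats, and most carry glycosaminoglycan chains, chondroitin or dermatan sulfate on decorin and biglycan and keratan sulfate on lumican and fibromodulin. They bind fibrillar collagens and set how thick the fibrils grow and how they are spaced. Decorin and biglycan also bind TGF-beta, and soluble biglycan is a known ligand of the Toll-like receptors Tlr2 and Tlr4. In fat they belong to the collagen scaffold that surrounds adipocytes and vessels.

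The 12028 named cells held 617812192 reads, from 5169 to 736281 per cell, and 10286 cells were kept, with a median of 36709 reads. Levels below are reads of a gene per 1000000 reads of all genes (CPM), summed over the cells of a class. The 95% intervals of levels are exact Poisson intervals of the reads. They cover at most counting error, and may be too narrow because reads are not unique molecules. The cells fell into 25 clusters made without the proteoglycan genes, and classes were named from other marker genes. There were 3132 fibroblast-like cells, 296 mesothelial-like cells (the lining of the fat pad), mural-like cells (pericytes and smooth muscle, 2.98% of the cells kept), 65 lymphatic endothelial-like cells, 994 blood endothelial-like cells and 3357 macrophage-like cells, and 697 cells stayed unnamed. All 11 fibroblast markers reached 20 CPM in fibroblast-like cells, where their summed level was 13018 CPM, against 6834 CPM in mesothelial-like and 802 CPM in mural-like cells. The 9 mesothelial markers summed to 9214 CPM in mesothelial-like cells and 43.2 CPM in fibroblast-like cells. There was 1 pool and no replicate, so no test was made. A gene was called higher or lower at a 2-fold difference of CPM + 1 with at least 20 CPM in 1 of the 2 classes, and the first count of members in a comparison stands beside the share of all tested genes that passed the same rule. Values of 0 in Dcn, Ogn and Fmod need care, because the lowest value above 0 in the table was 19 reads for Dcn, 8 for Ogn and 7 for Fmod, against 1 read for Lum, Bgn, Prelp and Podn. The relatives Aspn and Epyc had lowest values of 8 and 6 reads. For such genes an upper limit is given, in which every 0 was set to 1 read below that lowest value.

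Several members sit side by side in the mouse genome (GRCm38). Dcn (chr10:97479609-97518143, plus strand) and Lum (chr10:97565128-97572703, plus strand) were 46984 bases apart with 0 protein-coding genes between them. Prelp (chr1:133910304-133921414, minus strand) and Fmod (chr1:134037254-134048277, plus strand) were 115839 bases apart, again with 0 protein-coding genes between. Ogn (chr13:49608046-49624501, plus strand) lay next to Omd at the end of a row of 4 family genes, Ecm2, Aspn, Omd and Ogn, all on the plus strand. Bgn was at chrX:73483602-73495933 (plus strand), and Podn at chr4:108014791-108096445 (minus strand) overlapped Scp2 on the same strand. The promoters of Fmod and Prelp, neighbours with different patterns across cell types below, and of Bgn, which differed between endothelial-like clusters below, are shown as the 250 bases before the start in RefSeq (GRCm38.p6), 5′ to 3′ on the strand of the gene, with matches to the searched motifs in capitals. The windows are chr1:134037004-134037253 (plus), chr1:133921402-133921651 (minus) and chrX:73483351-73483600 (plus).
Fmod: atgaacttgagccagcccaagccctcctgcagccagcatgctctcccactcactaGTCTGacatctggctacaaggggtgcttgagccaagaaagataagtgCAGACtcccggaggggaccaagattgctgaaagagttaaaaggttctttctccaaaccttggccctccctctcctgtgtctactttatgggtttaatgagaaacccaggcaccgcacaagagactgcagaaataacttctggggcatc
Prelp: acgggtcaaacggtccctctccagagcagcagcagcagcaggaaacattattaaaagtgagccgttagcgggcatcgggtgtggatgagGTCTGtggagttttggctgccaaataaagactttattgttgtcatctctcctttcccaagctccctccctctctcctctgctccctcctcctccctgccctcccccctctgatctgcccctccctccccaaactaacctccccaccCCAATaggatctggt
Bgn: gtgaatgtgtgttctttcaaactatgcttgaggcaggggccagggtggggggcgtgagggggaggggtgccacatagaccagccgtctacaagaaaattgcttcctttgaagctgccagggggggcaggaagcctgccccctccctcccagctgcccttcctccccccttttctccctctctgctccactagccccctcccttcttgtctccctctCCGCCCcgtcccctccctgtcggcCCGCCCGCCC
The motifs searched on both strands were the TATA box TATAAA, the GC box GGGCGG, the CCAAT box CCAAT, the AP-1 site TGANTCA and the SMAD box CAGAC. The Fmod window held CAGAC on each strand, 148 and 195 bases before the start, and no other searched motif. The Prelp window held CCAAT 15 bases before the start and CAGAC on the opposite strand at 161 bases. The Bgn window held the GC box on the opposite strand at 34, 10 and 6 bases. Among 32817 promoter windows of the same length, 42.2% held CAGAC, 33.8% CCAAT, 32.7% the GC box, 12.4% the TATA box and 6.75% the AP-1 site, so each match is a description only. The share of G and C was 51.2% for Fmod, 55.6% for Prelp and 64.4% for Bgn, against a median of 52.4%. Of the 7 genes, Bgn, Fmod, Ogn, Podn and Prelp had an entry by symbol among the RefSeq promoters used, and Dcn and Lum did not.

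In fibroblast-like cells the 7 members took 2.35% of all reads, beside 2.33% for 11 collagen genes, both without correction for gene length. All 7 were called higher there than in macrophage-like cells, where 21.6% of 7749 tested genes were. Dcn reached 16728 CPM (interval 16708 to 16748) in fibroblast-like cells, against 162 CPM in macrophage-like cells, a ratio of 103. Bgn was at 2699 CPM in fibroblast-like cells, against 51.4 CPM in macrophage-like cells, and Lum at 1692 CPM in fibroblast-like cells, against 28.3 CPM in macrophage-like cells. Ogn, whose product also carries keratan sulfate and is called mimecan, was at 1677 CPM in fibroblast-like cells, against 7.51 CPM in macrophage-like cells. Prelp, which links basement membranes to collagen, was at 532 and Podn at 144 CPM in fibroblast-like cells, against 9.33 CPM for Prelp and 1.45 CPM for Podn in macrophage-like cells. The direction was the same for each of the 7 in all 9 hashtag populations. At the upper limits for missing low values Dcn would be at 16732 CPM in fibroblast-like cells and 313.8 CPM in macrophage-like cells, and Ogn at 1700 CPM in fibroblast-like cells and 81.8 CPM in macrophage-like cells. Fmod, at 33.7 CPM in fibroblast-like cells and 0.556 CPM in macrophage-like cells, would be at 143 CPM in fibroblast-like cells and 65.9 CPM in macrophage-like cells. A macrophage-like subcluster of 60 cells that also carried fibroblast genes held 54.1% of the class's Dcn reads, and without it macrophage-like cells had 76.0 CPM of Dcn, 26.7 CPM of Bgn and 18.02 CPM of Lum. The median log2 ratio of the 7 members was 5.85, beside 0.00 over all tested genes.

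**Figure D1:**
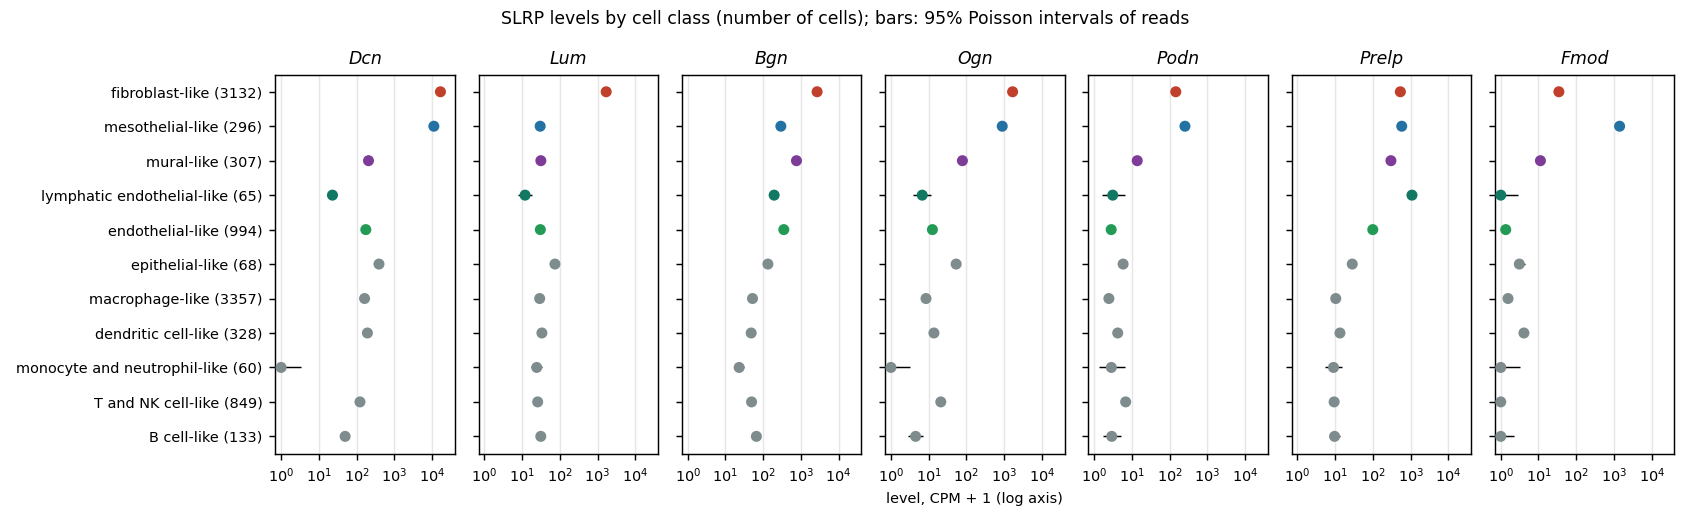
Level of each of the 7 proteoglycan genes in 11 named cell classes, on a log axis of CPM + 1; points are summed levels and bars are 95% Poisson intervals of the reads. Fibroblast-like cells are at the top of the range for Dcn (16728 CPM) and Lum (1692 CPM), mesothelial-like cells for Fmod (1411 CPM) and lymphatic endothelial-like cells for Prelp (1080 CPM).

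Low levels of the abundant members were also read in classes such as T and NK cell-like and B cell-like cells. T and NK cell-like cells (median 15126 reads per cell) had 122 CPM of Dcn, 48.5 CPM of Bgn and 24.9 CPM of Lum, and B cell-like cells had 48.8, 65.4 and 30.3 CPM of the same 3 genes. With every cell thinned to 5000 reads, Lum had a read in 82.0% of fibroblast-like cells (median 45760.5 reads before thinning) and in 9.66% of T and NK cell-like cells. The classes other than fibroblast-like had Lum in 4.62% to 15% of thinned cells. The macrophage-like subcluster of 60 cells with fibroblast genes stood apart, with Lum in 41.7%. Dcn reads per Lum read were 9.88 in fibroblast-like cells. Apart from mesothelial-like cells, the other classes lay between 0 in monocyte and neutrophil-like cells and 6.78 in mural-like cells, with 1.61 in B cell-like, 4.91 in T and NK cell-like and 5.74 in macrophage-like cells. Because Dcn values under 19 reads were absent, these ratios are lower limits. The source of these low reads was not tested.

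Mesothelial-like cells shared Dcn with fibroblast-like cells but not Lum, the gene next to it. Dcn was at 16728 CPM in fibroblast-like cells and 11194 CPM in mesothelial-like cells (interval 11144 to 11244), within 2-fold of each other. Lum was at 1692 CPM in fibroblast-like cells, against 29.1 CPM in mesothelial-like cells (interval 26.6 to 31.8), a ratio of 58.1. Over the 9 hashtag populations Lum ran between 1101 and 2478 CPM in fibroblast-like cells with a median of 1942, against 12.02 to 58.9 CPM with a median of 21.9 in mesothelial-like cells, so the 2 ranges lay far apart. In thinned cells Lum was read in 10.5% of mesothelial-like cells (interval 7.23% to 14.5%), a share that overlapped the 9.66% of T and NK cell-like cells (interval 7.76% to 11.8%). Dcn reads per Lum read thus came to 9.88 in fibroblast-like cells and 384 in mesothelial-like cells. Without thinning, 151 of the 296 mesothelial-like cells had no Lum read, and 144 of those had Dcn. The cells without Lum were the shallower ones, with a median of 28295 reads against 74851 in those with Lum, yet Dcn was at 11169 CPM in the cells without and 11206 CPM in the cells with Lum.

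**Figure D2:**
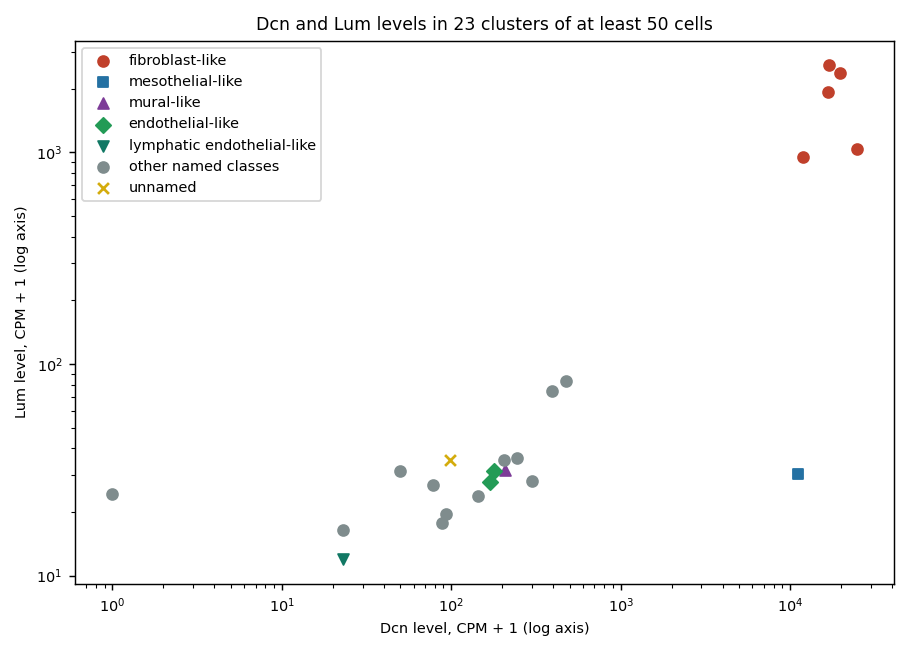
Dcn level (horizontal) against Lum level (vertical) in the 23 clusters of at least 50 cells, both as CPM + 1 on log axes, with 1 point per cluster. The mesothelial-like cluster has 11194 CPM of Dcn, near the 5 fibroblast-like clusters, but 29.1 CPM of Lum, at the height of the immune and vessel clusters.

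Fmod showed the opposite division. Fibromodulin, which binds collagen at the same site as lumican, was at 33.7 CPM in fibroblast-like cells, against 1411 CPM in mesothelial-like cells (interval 1393 to 1429), which is 41.9 times as high. In the hashtag populations it ran between 8.56 and 91.3 CPM in fibroblast-like cells with a median of 23.7, against 912 to 1539 CPM with a median of 1377 in mesothelial-like cells, with no overlap. Of all 10286 cells, 425 had a listed Fmod read, 143 of them fibroblast-like and 258 mesothelial-like. Fibroblast-like cells held 18.4% of all Fmod reads and mesothelial-like cells 80.3%, although fibroblast-like cells were 30.4% and mesothelial-like cells 2.88% of the cells. In thinned cells Fmod was read in 3.83% of fibroblast-like and 83.4% of mesothelial-like cells (4.57% and 87.2% without thinning), and in 0 of the 849 T and NK cell-like cells. Since Fmod values under 7 reads were absent before thinning, these shares and counts cover only cells with at least 7 Fmod reads. For the same reason the fibroblast-like level could be as high as 143 CPM and the mesothelial-like level 1424 CPM, which keeps the direction. The 151 mesothelial-like cells without a Lum read had 1379 CPM of Fmod, against 1427 CPM in those with one.

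Between fibroblast-like and mesothelial-like cells, 2 of the 7 members were called higher (10.7% of 7568 genes were) and 1 was called lower (11.4%). Lum and Bgn were the 2 higher ones. Bgn was at 2699 CPM in fibroblast-like cells and 294 CPM in mesothelial-like cells, a ratio of 9.17, and was higher in all 9 hashtag populations. The other 4 were within 2-fold. Ogn was at 1677 CPM in fibroblast-like cells and 890 CPM in mesothelial-like cells, and higher in 8 of 9 populations. Prelp was at 532 CPM in fibroblast-like cells and 579 CPM in mesothelial-like cells, higher in 4 and lower in 5 populations. Podn was at 144 CPM in fibroblast-like cells and 253 CPM in mesothelial-like cells, and lower in 8 of 9 populations. For Podn, reads of Scp2, which overlaps it on the same strand, could be counted in part with it; Scp2 itself was at 129 CPM in fibroblast-like cells and 206 CPM in mesothelial-like cells, but also at 224 CPM in macrophage-like cells, where Podn was at 1.45 CPM.

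Within the mesothelial-like cells the pattern was held by all 6 subclusters. Fmod ran between 747 and 1561 CPM, Dcn between 8715 and 11945 CPM and Lum between 18.1 and 51.9 CPM. The lowest Fmod and Dcn came from a subcluster of 44 cells that also carried macrophage genes. Without it mesothelial-like cells had 1460 CPM of Fmod, 11377 CPM of Dcn and 29.8 CPM of Lum. The largest subcluster, 80 cells led by the division genes Top2a and Mki67, had 1559 CPM of Fmod and 11697 CPM of Dcn. Of the 11 fibroblast markers 10 reached 20 CPM in mesothelial-like cells, where all 11 summed to 6834 CPM. The marker below 20 CPM was Pdgfra, a receptor that marks fibroblasts, at 369 CPM in fibroblast-like cells and 10.5 CPM in mesothelial-like cells. In macrophage-like cells Pdgfra was at 4.71 CPM.

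In the cells of the vessel wall Bgn and Prelp stood above their levels in the immune classes. Mural-like cells had 765 CPM of Bgn (interval 747 to 783) and 299 CPM of Prelp, where macrophage-like cells had 51.4 CPM of Bgn and 9.33 CPM of Prelp. Their Dcn, 206 CPM, and Lum, 30.4 CPM, were near the levels of those classes. Of the 7 members, 6 were called higher in fibroblast-like than in mural-like cells (10.7% of 8147 genes were). The ratio was 3.53 for Bgn, 21.7 for Ogn, 55.6 for Lum and 81.1 for Dcn, while Prelp, at 532 CPM in fibroblast-like cells and 299 CPM in mural-like cells, stayed within 2-fold. At the upper limits for missing low values Dcn would be at 16732 CPM in fibroblast-like cells and 779.8 CPM in mural-like cells, and Ogn at 1700 CPM in fibroblast-like cells and 298.2 CPM in mural-like cells, which lowers both ratios and keeps both calls. Over the hashtag populations Bgn ran between 497 and 1333 CPM (median 640) and Prelp between 207 and 433 CPM (median 279) in mural-like cells. The call for Fmod, at 33.7 CPM in fibroblast-like cells and 10.3 CPM in mural-like cells, held in 7 of 9 populations and turned round at the upper limits of 143 CPM in fibroblast-like cells and 211 CPM in mural-like cells. Bgn differed among the 4 mural-like subclusters of at least 50 cells. It was at 1346 and 1060 CPM in the 2 subclusters with the most Aspn (2234 and 2195 CPM), at 464 CPM in one led in part by the muscle gene Pln, and at 478 CPM in one of 55 cells that also carried endothelial genes. Prelp was at 208, 319, 362 and 264 CPM in the same 4. Without 63 cells of subclusters that also carried genes of another class, mural-like cells had 886 CPM of Bgn and 325 CPM of Prelp.

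Blood endothelial-like cells had 353 CPM of Bgn and 98.05 CPM of Prelp, and all 7 members were called higher in fibroblast-like than in endothelial-like cells (14.1% of 8129 genes were). The Fmod call, 33.7 CPM in fibroblast-like cells and 0.354 CPM in endothelial-like cells, also turned round at the upper limits of 143 CPM in fibroblast-like cells and 301.5 CPM in endothelial-like cells. At those limits Dcn in endothelial-like cells would be at 1032 CPM and Ogn at 358 CPM, still called lower there than in fibroblast-like cells. The 2 endothelial-like clusters differed. A cluster of 181 cells led by Selp and Vwf, genes of venous endothelium, had 954 CPM of Bgn (interval 927 to 980), against 139 CPM (interval 133 to 145) in the 813 cells of a cluster led by the capillary genes Gpihbp1 and Car4. Prelp was at 269 CPM in the Selp and Vwf cluster, against 37.0 CPM in the Gpihbp1 and Car4 cluster. Both genes were higher in the Selp and Vwf cluster in 9 of 9 hashtag populations. Bgn ran between 665 and 1338 CPM (median 1125) there, with 9 to 43 cells a population, against 77.7 to 247 CPM (median 111) in the other cluster. Of the 4 members with at least 20 CPM in either cluster these 2 were called higher, where 6.81% of 7821 genes were. Dcn was at 169 CPM in the Selp and Vwf cluster and 177 CPM in the Gpihbp1 and Car4 cluster, and Lum at 26.7 CPM in the Selp and Vwf cluster and 30.4 CPM in the Gpihbp1 and Car4 cluster. Over all blood endothelial-like cells, 2061 of 3463 listed Dcn reads lay in 1 subcluster of 128 cells, led in part by Hmcn2 and Has1. There Dcn was at 749 CPM and was read in 8.59% of the cells. Mural genes were present in some endothelial-like cells. In a subcluster of 85 cells led in part by Acta2, Bgn was at 615 CPM and the mural-rich family gene Aspn at 142 CPM. In another, of 77 cells led by Rspo3, Bgn was at 962 CPM and Prelp at 263 CPM. Aspn had 0 listed reads in these 77 cells. Because low Aspn values were absent, its upper limit there was 358 CPM, against 288 CPM in the subcluster led in part by Acta2.

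Prelp was highest in lymphatic endothelial-like cells, the vessels that drain tissue fluid. It was at 1080 CPM there (interval 1034 to 1128), against 98.05 CPM in blood endothelial-like cells, a ratio of 11.02, and was read in 78.5% of thinned lymphatic cells, against 12.8% of thinned blood endothelial-like cells and 3.06% of T and NK cell-like cells. It was higher in lymphatic than in blood endothelial-like cells of all 9 hashtag populations, with a lowest value of 309.1, a median of 1460 and a highest value of 1774 CPM, but a population held only 1 to 14 such cells. Prelp was 1 of the 4 members with at least 20 CPM in either class and the one called higher (12.6% of 8091 genes were). Dcn and Lum were called lower (19.9% of genes were), at 22.0 and 10.99 CPM in lymphatic cells, against 175 and 29.4 CPM in blood endothelial-like cells. At the upper limits for missing low values Dcn would be at 625 CPM in lymphatic and 1032 CPM in blood endothelial-like cells, within 2-fold. The listed Dcn reads of the blood class came mostly from the subcluster of 128 cells named above. Bgn was at 195 CPM in lymphatic and 353 CPM in blood endothelial-like cells, within 2-fold. Over the classes Prelp followed the order lymphatic (1080 CPM), mesothelial-like (579 CPM), fibroblast-like (532 CPM), mural-like (299 CPM) and blood endothelial-like (98.05 CPM). The hashtag ranges of the first 3 overlapped one another. The mural-like range (207 to 433 CPM) overlapped those of lymphatic (309.1 to 1774 CPM) and mesothelial-like cells (358 to 978 CPM). It did not overlap that of fibroblast-like cells (468 to 603 CPM). The blood endothelial-like range (48.3 to 161 CPM) lay below all the others. For Bgn the order among the 4 larger of these classes was fibroblast-like, mural-like, blood endothelial-like and mesothelial-like, with ranges of 2004 to 4486, 497 to 1333, 262 to 427 and 155 to 764 CPM, of which the last overlapped the 2 before it.

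Relatives outside the 7 were measured in the same classes. Of 4 other family genes with at least 20 CPM, 3 were called higher in fibroblast-like than in mesothelial-like cells, where 10.7% of all tested genes were. Asporin (Aspn), a close relative of decorin, was at 788 CPM in fibroblast-like cells and 8.64 CPM in mesothelial-like cells, and Ecm2 at 323 CPM in fibroblast-like cells and 36.7 CPM in mesothelial-like cells. Epyc was at 35.7 CPM in fibroblast-like cells and listed at 0 in mesothelial-like cells, but at upper limits of 126 CPM in fibroblast-like cells and 86.4 CPM in mesothelial-like cells it would be within 2-fold and not called. Omd, next to Ogn on chromosome 13, was at 25.4 CPM in fibroblast-like cells and 42.8 CPM in mesothelial-like cells. Aspn was called lower in fibroblast-like than in mural-like cells, where it was at 1629 CPM (18.7% of genes were called lower). At upper limits of 861 CPM in fibroblast-like cells and 1669 CPM in mural-like cells Aspn would be within 2-fold and not called.

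**Figure D3:**
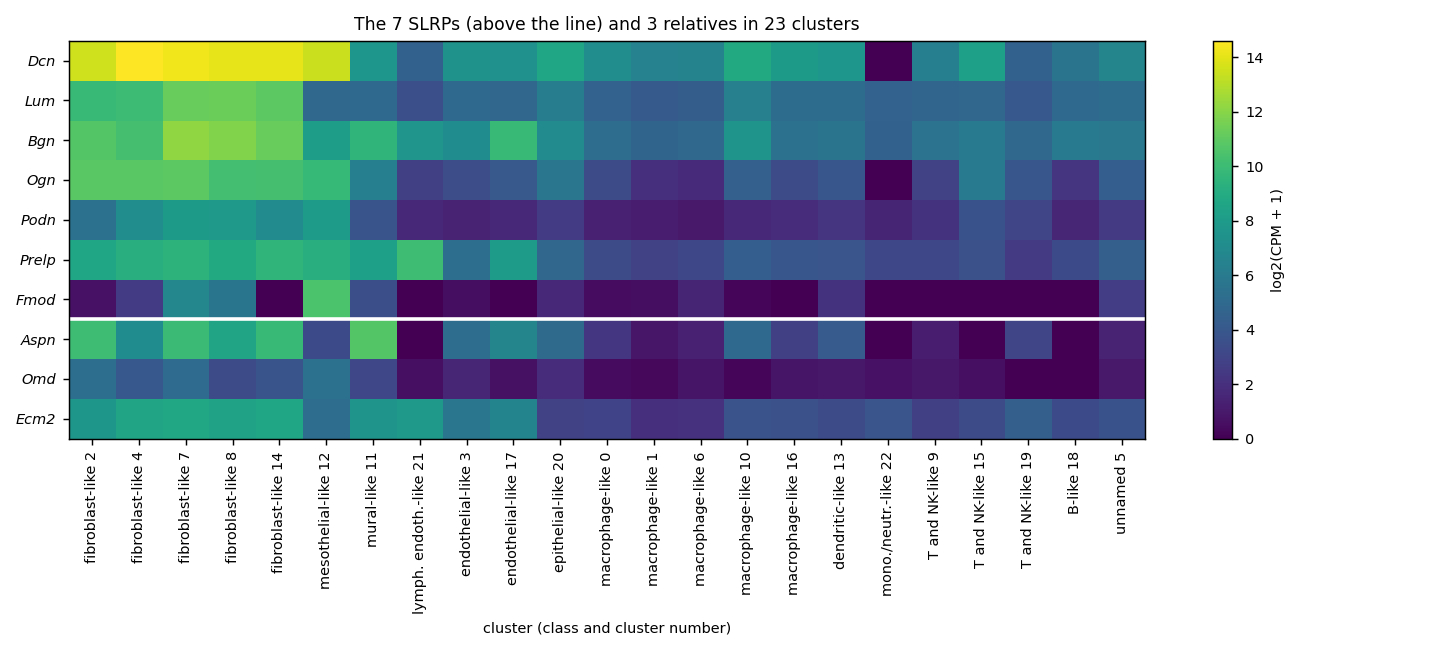
Level, as log2(CPM + 1), of the 7 proteoglycan genes (above the white line) and of Aspn, Omd and Ecm2 in the 23 clusters of at least 50 cells. Dcn, Bgn, Ogn and Prelp are high in the 5 fibroblast-like clusters, Fmod stands out in mesothelial-like cluster 12, Prelp in lymphatic cluster 21, and Bgn and Prelp in endothelial-like cluster 17.

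The collagens that these proteins bind were called higher in fibroblast-like than in mesothelial-like cells for 11 of 11 genes; in this comparison 10.7% of all tested genes were called higher and 11.4% lower, which is the background for each list here. Col3a1 was at 9657 CPM in fibroblast-like cells and 2882 CPM in mesothelial-like cells, and Col1a1 at 2222 CPM in fibroblast-like cells and 989 CPM in mesothelial-like cells. Collagens took 2.33% of the reads of fibroblast-like and 0.699% of those of mesothelial-like cells, and the 7 proteoglycans 2.35% in fibroblast-like and 1.47% in mesothelial-like cells. Of 12 measured enzymes that build chondroitin and dermatan sulfate chains, 7 were called higher and 0 lower in fibroblast-like cells, among them the dermatan sulfate epimerase Dse (82.0 CPM in fibroblast-like cells and 31.6 CPM in mesothelial-like cells). Of 5 keratan sulfate enzymes 1 was called higher and 2 lower. Chst4, a sulfotransferase, was at 0.188 CPM in fibroblast-like cells and 176 CPM in mesothelial-like cells, and B4galt4 was at 10.6 CPM in fibroblast-like cells and 64.4 CPM in mesothelial-like cells. Of 7 proteases that cut these proteins 6 were called higher and 1 lower, with the aggrecanase Adamts5 at 828 CPM in fibroblast-like cells and 45.8 CPM in mesothelial-like cells and Htra1 at 319 CPM in fibroblast-like cells and 780 CPM in mesothelial-like cells. The median log2 ratio was 2.07 for the collagens, 1.08 for the chondroitin and dermatan sulfate enzymes, 0.03 for the keratan sulfate enzymes and 3.77 for the proteases, beside 0.58 for the 7 members and -0.01 over all tested genes.

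Receptors and partners lay partly in other cells. Of 13 signalling partners measured in fibroblast-like and macrophage-like cells, 4 were called higher and 6 lower in the fibroblast-like ones, where 21.6% of all tested genes were called higher and 17.4% lower. The EGF receptor Egfr, which decorin binds, was at 310 CPM in fibroblast-like cells, against 8.06 CPM in macrophage-like cells. Cd14, a co-receptor for biglycan, was at 10.3 CPM in fibroblast-like cells, against 400 CPM in macrophage-like cells, and Cd44 at 108 CPM in fibroblast-like cells, against 570 CPM in macrophage-like cells. All 7 measured proteases and all 11 collagens were called higher in fibroblast-like cells in this comparison, as were 8 of 14 chondroitin and dermatan sulfate enzymes, with 2 lower. Of 13 other proteoglycans 8 were higher and 4 lower, with versican (Vcan) at 624 CPM in fibroblast-like cells, against 7.30 CPM in macrophage-like cells and serglycin (Srgn) at 29.4 CPM in fibroblast-like cells, against 506 CPM in macrophage-like cells. Against mesothelial-like cells, where the background was 10.7% higher and 11.4% lower, 6 of 15 of these proteoglycans were higher and 5 lower, and 6 of 14 signalling partners were higher and 4 lower. The median log2 ratio of fibroblast-like over macrophage-like cells was -0.16 for the signalling partners, 4.74 for the other proteoglycans, 5.83 for the proteases and 5.98 for the collagens.

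The genes whose log2(CPM + 1) over the 23 clusters was most like each member were found among 11863 genes outside the family; the clusters come from 1 pool, so the coefficients are descriptions. For Dcn these were Loxl1 (Pearson r 0.95), Gabra3 (0.94) and Smoc2 (0.93), and for Lum they were Prrx2 (0.98), Matn2 (0.98) and Ssc5d (0.98). Bgn was most like Fstl1 (0.96), Mxra8 (0.95) and Kdelr3 (0.95), and Ogn most like Scara5 (0.97), Sdc2 (0.96) and Vegfd (0.96). Among the genes most like Fmod were Fam180a (0.91) and Ecrg4 (0.88), both highest in the mesothelial-like cluster. Prelp was most like Gm9780 (0.97), Eda (0.96) and Rhobtb3 (0.96), and Podn most like Tmem119 (0.95), Gpc3 (0.95) and Vegfd (0.95). Among the members, Dcn and Ogn were the most alike pair (0.95) and Lum and Fmod the least (0.34), while the neighbours Dcn and Lum stood at 0.83. Over the 3132 fibroblast-like cells, which also share depth, the highest rank correlation of a pair was 0.43, between Lum and Bgn (mean 0.30 within subclusters), and that of Lum and Ogn was 0.00.

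Fibroblast-like cells were not uniform. Their 10 subclusters of at least 50 cells differed by at least 2-fold between the highest and the lowest for all 7 members, but 68.9% of 8451 genes did so, which makes the count itself no result about the family. Dcn was highest, at 28383 CPM, in subcluster 5, 355 cells led by Clic6, P2ry1 and Aspa, and lowest, at 9539 CPM, in subcluster 2, 392 cells led by Mrgprg and Duox1. These ranges did not overlap over the hashtag populations, with 23857 to 30898 CPM in subcluster 5 against 8440 to 11285 CPM in subcluster 2. Subcluster 5 was also highest for Ogn (2319 CPM) and Prelp (873 CPM). The lowest values of those 2, 1116 and 253 CPM, came from subcluster 1, the shallowest, with a median of 14461 reads per cell and 8.83% mitochondrial reads. For Ogn that place is not settled, since the upper limit was 1312 CPM in subcluster 1 and 1239 CPM in subcluster 3. The highest upper limit of Ogn was 2328 CPM, in subcluster 5, so at these limits Ogn would not differ by 2-fold.

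Lum and Bgn were high together in subclusters 0 and 8. Subcluster 0, 506 cells led by Mdk, C4b and Cxcl9, had 2646 CPM of Lum and 3983 CPM of Bgn. A matrix list, which includes Mdk and C4b, summed to 5050 CPM there and 2332 CPM in the other fibroblast-like cells. Subcluster 8, 175 cells led by Thbs4, Col8a1 and Mfap4, had 2599 CPM of Lum and 4844 CPM of Bgn. High Bgn was not limited to these, since subcluster 6 had 4763 CPM of Bgn, with 1947 CPM of Lum. Subcluster 4, 372 cells led by Krtdap and Cxcl10, had the lowest Lum, 717 CPM. Its Bgn was at 1375 CPM (interval 1360 to 1391). The shallow subcluster 1 was as low in Bgn, at 1383 CPM (interval 1357 to 1410). In subcluster 4 a progenitor list summed to 6776 CPM, against 2366 CPM in the other fibroblast-like cells. An inflammatory list summed to 7060 CPM in subcluster 4, against 2048 CPM in the others. Over the hashtag populations Lum lay between 2238 and 3318 CPM in subcluster 0, against 512 to 1252 CPM in subcluster 4. Ogn ran the other way in these cells, with 1261 CPM in subcluster 0 and 2138 CPM in subcluster 4. Subcluster 2, the other one high for the progenitor list (6481 CPM, against 2225 CPM in the others), had 1052 CPM of Lum, 1641 CPM of Bgn and 1735 CPM of Ogn.

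Podn and, in the listed reads, Fmod spanned the widest ranges. Podn was at 356 CPM in subcluster 6, against 37.1 CPM in subcluster 2, a ratio of 9.59; it was at 248 CPM in subcluster 0 and at 46.3 CPM in subcluster 4, so both subclusters high for the progenitor list were its lowest. Fmod was at 254 CPM in subcluster 6, at 63.0 CPM in subcluster 0 and at 38.4 CPM in subcluster 8, and was listed at 0 in subclusters 2 and 4. The upper limits were 357 CPM in subcluster 6, 149 CPM in subcluster 0, 103 CPM in subclusters 4 and 8 and 84.6 CPM in subcluster 2, but 375 CPM in the shallow subcluster 1, so the order of Fmod at the top and the bottom is not settled. In thinned cells it was read in 22.0% of subcluster 6, 9.49% of subcluster 0 and 4.57% of subcluster 8. Subcluster 6 held 232 cells led by haemoglobin genes, Chrdl1 and Grem1. A Cd142 list summed to 2663 CPM there, against 489 CPM in the other fibroblast-like cells. The haemoglobin of subcluster 6 summed to 870 CPM, whose part in these values was not tested. Over the hashtag populations Fmod lay between 44.3 and 464 CPM in subcluster 6 and was listed at 0 throughout in subcluster 2. Ecm2 (541 CPM) was also highest in subcluster 6, while Aspn was highest in subclusters 8 (1564 CPM) and 2 (1516 CPM).

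**Figure D4:**
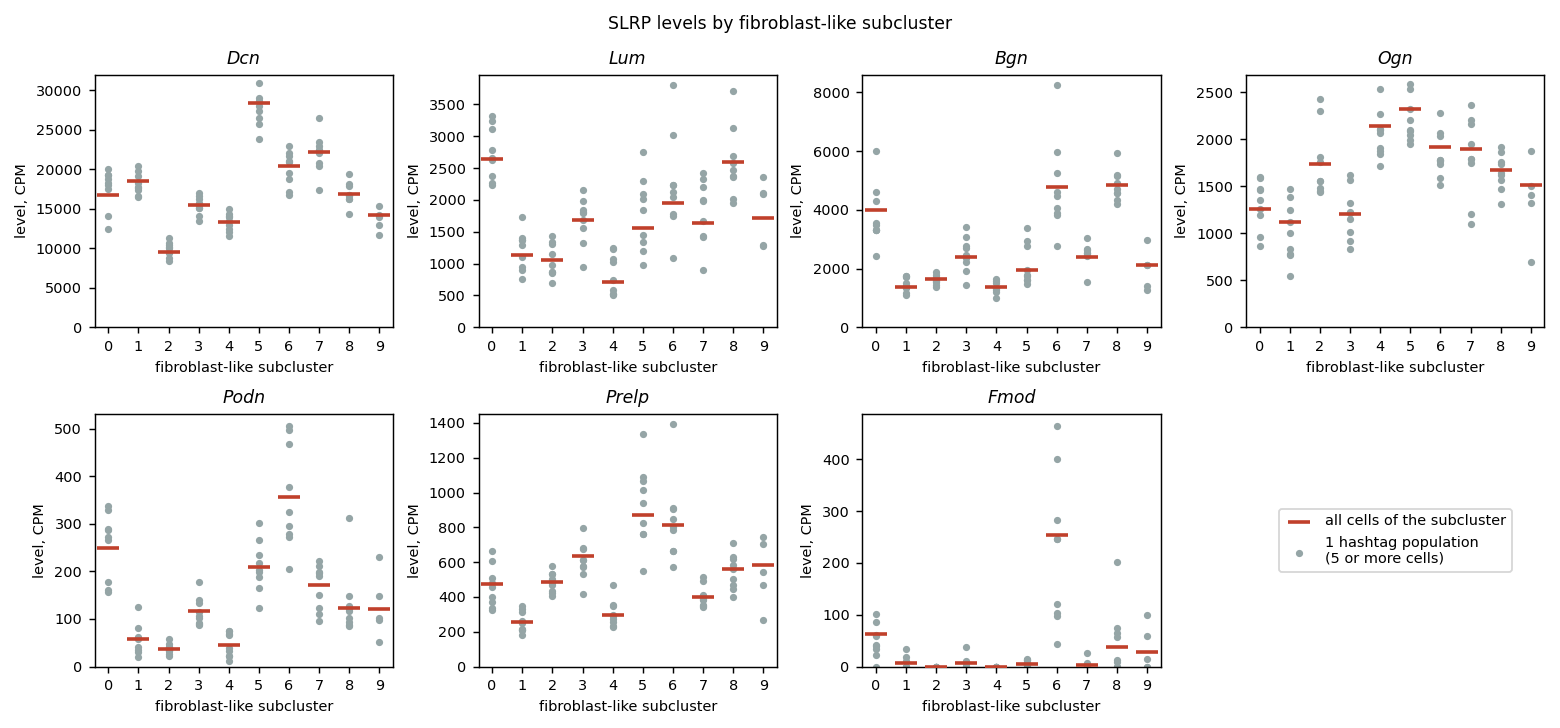
Level in CPM of each of the 7 proteoglycan genes in the 10 fibroblast-like subclusters of at least 50 cells; red lines are all cells of a subcluster and grey points are hashtag populations with at least 5 cells in it. Dcn peaks in subcluster 5 (28383 CPM), Lum in subcluster 0 (2646 CPM), Bgn in subcluster 8 (4844 CPM), and Podn (356 CPM) in subcluster 6; the listed Fmod reads peak there too (254 CPM), with an upper limit of 357 CPM against 375 CPM in subcluster 1.

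The 9 hashtag populations, whose diets are not known, were compared within fibroblast-like cells. Of the 7 members, 4 differed by at least 2-fold between the highest and the lowest population, where 17.8% of 7728 genes did. Lum ran between 1101 CPM in A0303 and 2478 CPM in A0310 (median 1942), and Bgn between 2004 CPM in A0303 and 4486 CPM in A0310 (median 2685). Podn ran between 93.4 CPM in A0307 and 218 CPM in A0309, and Fmod between 8.56 CPM in A0304 and 91.3 CPM in A0309. Dcn spanned 13512 to 18726 CPM, Ogn 1224 to 2079 CPM and Prelp 468 to 603 CPM, all within 2-fold. The hashtag call is weak in these cells. They had a median of 45 hashtag counts, against 1513 in mesothelial-like and 2323 in macrophage-like cells. The tag with the most counts was the called one in 83.1% of fibroblast-like and 97.3% of mesothelial-like cells. In the 1030 fibroblast-like cells where 1 tag held at least 2/3 of at least 10 counts, the same 4 genes differed by at least 2-fold, Lum by 2.54, Bgn by 2.77, Podn by 2.60 and Fmod by 40.5 times.

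The mix of fibroblast-like subclusters also differed between the hashtag populations. Subcluster 0, rich in Lum and Bgn, made up 38.6%, 37.7% and 37.9% of the fibroblast-like cells of A0308, A0309 and A0310, against 5.89% to 12.1% in the other 6 populations. With every subcluster given equal weight, the highest population was 1.81 times the lowest for Lum, 1.505 times for Bgn and 1.56 times for Podn. Fmod alone of the 7 stayed above 2-fold, at 6.40 times. For Lum and Bgn A0303 was still the lowest population and A0310 the highest. The part of the subcluster mix in these ranges was not tested. These Fmod ratios rest on values of at least 7 reads; over all fibroblast-like cells the upper limits ran between 95.1 CPM in A0307 and 204 CPM in A0309.

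**Figure D5:**
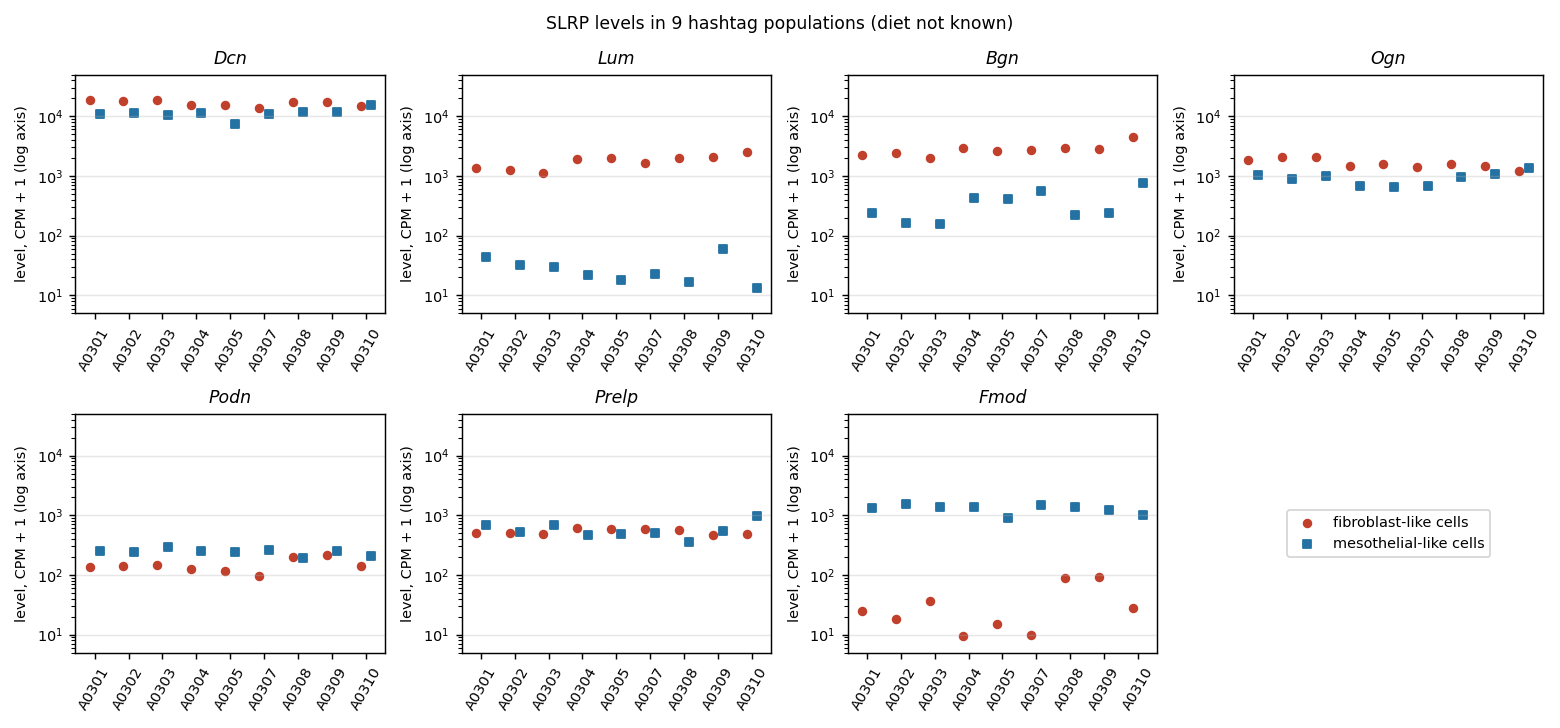
Level (CPM + 1, log axis) of each of the 7 proteoglycan genes in fibroblast-like cells (red circles) and mesothelial-like cells (blue squares) of the 9 hashtag populations. Lum (1101 to 2478 CPM in fibroblast-like and 12.02 to 58.9 CPM in mesothelial-like cells) and Fmod (8.56 to 91.3 CPM in fibroblast-like and 912 to 1539 CPM in mesothelial-like cells) separate the 2 classes in opposite directions in every population shown.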

How the data were processed

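Read counts per gene and cell were deposited by the authors as 1 table, and hashtag counts per barcode as another; cutadapt 2.10, Bowtie2 2.4.2, R 3.6.3 and GRCm38 are named in the submitters' processing notes. Column names carry the authors' hashtag call; 12 columns without one were not used. Reads are not unique molecules, so intervals and floors (3 counts for a 0) cover at most the counting error of reads and may be too narrow. The hashtag table shared all 12028 barcodes with the transcriptome table.

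The filter removed cells under 200 detected genes or above 25% mitochondrial reads. Cells the authors called hashtag doublets (254) and Scrublet calls (236, expected rate 0.05) were removed, which left 10286. Cells were clustered (scanpy 1.11.5, Leiden 0.10.2, 2000 variable genes, 30 components, 15 neighbours, resolution 1) without the 113 genes read out here. A class was named where at least 55%, and at least 3, of its markers reached 20 CPM and 20% of their highest cluster level. No name was given where at least 2 of a cluster's 10 leading genes were markers of another class, as in the 697 unnamed cells. A shallow cluster with none of its own markers leading was not named either. These rules and the merging of clusters into classes were set after the clusters were seen. Subclusters were named by number and leading genes.

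Folds use a pseudocount of 1 CPM. Thinning drew 5000 reads per cell, and no cell was lost. The call rule was tested on simulated data. All 7 members are named; of other lists, up to 4 called genes with the highest levels, and for each member the 3 most alike genes, of which 1 is not reported here. Pdgfra and the genes that lead a cluster or subcluster were named after their values were seen. Members and lists were chosen with earlier results of these data known. Gene positions come from GENCODE M21. Symbols matched the annotation for 28350 of 29417 genes (96.4%). Alternatives tried were the filter, doublet calls, clustering resolution, pseudocount, thinning, equal weight of cells, filled low values, and leaving out each hashtag population, among others.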

Additional observations from a re-analysis of the deposited data

How the results depend on the processing

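Of 129 recomputed counts of called members, 126 stayed within 1.5 times their reported value. The other 3 concern the members at least 2-fold apart between hashtag populations in fibroblast-like cells, 4 as reported. Leaving out 1 population in turn gave as few as 2 (without A0303, and without A0310) and at most 4, and giving every subcluster equal weight, an alternative chosen after seeing the data, gave 1. Also chosen after seeing the data, cells with a clear hashtag gave 4, and leaving out the shallow, the haemoglobin-led and the macrophage-led subcluster left 6 members at least 2-fold apart between fibroblast-like subclusters, 7 as reported. Of 588 recomputed folds between classes, 390 moved by less than 0.1 on the log2 scale, 196 moved by more and 2 reversed; 36 moved by over 1.5 times. With missing low values filled, the log2 ratio of Fmod was -0.56 for fibroblast-like over mural-like cells (1.62 as reported) and -1.07 for fibroblast-like over endothelial-like cells (4.68 as reported); the fill sets each 0 to just below the lowest value seen, so it is an upper limit. With Scrublet calls kept, Lum in fibroblast-like over mesothelial-like cells was at 4.16 (5.81 as reported) and Dcn in fibroblast-like over macrophage-like cells at 5.52 (6.68 as reported), and Ogn in fibroblast-like over endothelial-like cells at 4.64 (7.06 as reported); the cause was not tested. Without the mixed subclusters, Dcn in fibroblast-like over macrophage-like cells was at 7.76. Fmod in fibroblast-like over mural-like cells was at 2.95 without A0301 and 3.76 in thinned cells (1.62 as reported). Podn in the same comparison was at 4.12 without A0308 (3.39 as reported). Fmod in fibroblast-like over mesothelial-like cells ranged between -5.67 and -3.31 over all alternatives, and Lum between 4.16 and 5.98. Depth limits the lymphatic class, with 65 cells, and mesothelial-like cells per population, with as few as 10. No paired analysis was possible because the labels give 1 transcriptome and 1 hashtag library of the same pool, which hold different measurements, and no test was made between cell classes; in how many hashtag populations a direction held stands beside the class results.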

Other observations

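Hashtag populations A0301, A0302 and A0303 had 1352, 1259 and 1101 CPM of Lum in fibroblast-like cells, A0304, A0305 and A0307 had 1942, 1969 and 1619 CPM, and A0308, A0309 and A0310 had 2031, 2055 and 2478 CPM. For Ogn the same cells had 1851, 2048 and 2079 CPM in A0301, A0302 and A0303, 1462, 1605 and 1436 CPM in A0304, A0305 and A0307, and 1585, 1449 and 1224 CPM in A0308, A0309 and A0310. The 3 highest Ogn values and the 3 lowest Lum values were thus those of A0301, A0302 and A0303. Depth and dissociation genes also differed in these cells. Median reads per cell lay between 39369 and 40560 in A0301, A0302 and A0303 and between 43028.5 and 63847 in the other 6, and summed dissociation genes between 18445 and 20060 CPM in the first 3 and between 12141 and 18852 CPM in the other 6. Their part in these values was not tested. Summed collagens were 17017, 16871 and 15911 CPM in A0301, A0302 and A0303, 28843, 26085 and 30765 CPM in A0304, A0305 and A0307, and 25217, 25552 and 28852 CPM in A0308, A0309 and A0310. Fmod had 88.3 and 91.3 CPM in A0308 and A0309, and between 8.56 and 36.1 CPM in the other 7, all in values of at least 7 reads. No label used here says what these populations ate, and the values carry no replicate.

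In macrophage-like cells of A0302 Dcn was at 1084 CPM, the highest of 9 populations with a median of 170 CPM; that population held 66 macrophage-like cells, the fewest. A mural-like subcluster of 43 cells led by Hmcn2, Ptx3 and Has1 had 973 CPM of Dcn and 498 CPM of Prelp, against 206 CPM of Dcn and 299 CPM of Prelp over all mural-like cells. Ptx3 and Has1 belong to the inflammatory list used for fibroblast-like cells, and Hmcn2 was also among the leading genes of fibroblast-like subcluster 3. These 43 cells were kept when the 63 mixed mural-like cells were left out. The source of their Dcn and Prelp reads was not tested. An endothelial-like subcluster of 95 cells led by Gkn3 and Gja5 had 327 CPM of Bgn. Podnl1, a relative of podocan, was at 69.0 CPM in T and NK cell-like cells, and Tsku was at 90.8 CPM in epithelial-like cells. Both are family members outside the 7.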
